A study of Mus musculus with 8 samples.

Results

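The 9 genes described here belong to the lineage of the megakaryocyte, the platelet-forming cell of the bone marrow, and were followed in erythroid cells that received wild type KLF1 or its E339K mutant. They comprise 4 transcription factor genes (Fli1, Runx1, Meis1 and Mef2c) and 5 genes for platelet surface and granule proteins (Itga2b, Itgb3, Pf4, Gp9 and Gp1bb). The genes were taken by name, as rows of the deposited gene tables and as the closest transcription start site (TSS) of the deposited binding sites. Of the 9 genes, 4 had a level among the 11364 genes of the tables (Runx1, Itga2b, Mef2c and Gp9), and the other 5 were not among these genes. Of the 5551 consensus binding sites, 5 had one of the 9 genes as the closest TSS.

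K1 cells are an immortalised erythroid line from Klf1 null mouse fetal liver, so every group shares the loss of endogenous KLF1. The labels give 3 libraries of 4sU-labelled RNA from K1 cells without a transgene, 2 treated with tamoxifen and 1 with ethanol, and 3 from K1-CDA-ER cells, which carry inducible CDA-KLF1 (E339K) and were treated with tamoxifen. The K1-CDA-ER libraries came from clones 1B, 2A and 2B, and tamoxifen was given as 4-hydroxytamoxifen (4-OHT) at 200 nM. 4-thiouridine (4sU), marks newly made RNA, and was given at 500 μM for 30 min by the labels, while the methods of the study give another dose and a longer time. For chromatin immunoprecipitation (ChIP) an estrogen receptor antibody was used on clone 2A after 3 h, with 1 ChIP library of 3 pooled replicates and 1 input library. The transgene was delivered by an MSCV retrovirus into cells then sorted for GFP, and 1 clone stands behind all mutant binding values. Cells with wild type KLF1 in the same form, K1-ER, belong to earlier work of the authors. Their binding enters here as a mean concentration per site and their RNA as part of the mean level of each gene. Wild type and mutant binding thus come from different studies and clones. In every comparison of the 2 proteins below, protein, study and clone cannot be told apart.

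The erythroid and megakaryocyte lineages arise from a common progenitor. KLF1 drives the erythroid fate, while FLI1, a transcription factor of the ETS family, drives the megakaryocyte fate, and these proteins are known to oppose each other. RUNX1, MEIS1 and MEF2C also act in megakaryocytes, and the surface proteins encoded by Itga2b, Itgb3, Gp9 and Gp1bb let platelets adhere and aggregate. KLF1 binds a G-rich sequence through its zinc fingers, and the glutamate changed to lysine in the mutant lies in the finger that reads the middle of this sequence.

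The sequences of 4 of the 5 sites are shown first, to set the motifs they hold beside the binding values. For 3 motifs, both strands of the mm9 sequence were searched up to 50 bp to either side of the midpoint, with overlapping matches counted. The pyrimidine motif is NGGGCGGGG or NGGGCGTGG or NGGGTGGGG or NGGGTGTGG, with C or T at the middle base. The purine motif is NGGGAGGGG or NGGGAGTGG or NGGGGGGGG or NGGGGGTGG, with A or G there. The third is the motif of GATA factors, AGATAA or AGATAG or TGATAA or TGATAG. Motif matches are in capitals and all sequences are on the plus strand.

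The central 101 bp of the sites at Itga2b (chr11:102328497-102328597), Itgb3 (chr11:104483551-104483651) and Runx1 (chr16:92715961-92716061 and chr16:92785688-92785788) were as follows.
Itga2b intron 4: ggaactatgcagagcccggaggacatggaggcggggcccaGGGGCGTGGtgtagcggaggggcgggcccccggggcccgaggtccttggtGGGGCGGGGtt
Itgb3 intron 1: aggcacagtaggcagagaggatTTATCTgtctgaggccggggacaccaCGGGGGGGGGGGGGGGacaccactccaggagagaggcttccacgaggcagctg
Runx1 intron 2, proximal-side site: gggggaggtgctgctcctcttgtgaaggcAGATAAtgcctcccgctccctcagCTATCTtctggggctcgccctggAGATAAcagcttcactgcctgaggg
Runx1 intron 2, distal-side site: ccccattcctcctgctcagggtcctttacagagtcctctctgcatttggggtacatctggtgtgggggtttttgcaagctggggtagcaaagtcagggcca

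The site at Itga2b, higher for wild type, held the pyrimidine motif and no purine motif. The site at Itgb3, at the lowest listed value for wild type, held a run of 15 G that matches the purine motif at 8 overlapping positions, and no pyrimidine motif. Neither Runx1 site held a KLF1 motif of either kind in its central window, and the proximal-side site held 3 GATA matches. Over all 5551 sites, 35.5% held a purine match, 35.3% a pyrimidine match, 20.6% a GATA match and 42.2% no KLF1 motif of either kind. These are matches of letters, counted without a test, and no match says only that these letters were not in the window.

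Binding was compared through the concentration, which is the log2 of the mean normalized read count that the authors give for each protein at each site. The table holds 1 mean per protein and no value per library, so no error between replicates and no test can be given, and a site was counted as higher for a protein when its mean was at least 2-fold above the other. By this rule 2 of the 5 sites were higher for mutant, 2 were higher for wild type and 1 was within 2-fold. Over all sites, 61.5% were higher for mutant and 28.7% were higher for wild type. With 5 sites, the shares among the megakaryocyte genes cannot be set apart from these background shares. The median concentration over all sites was 2.82 for wild type and 4.86 for mutant. Many sites stood at a floor, which was -0.09 for wild type (1424 sites, 25.7%) and -0.38 for mutant (147 sites, 2.65%). Where wild type stands at this floor, no fold is given and the difference is the least that the listed values allow.

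**Figure D1:**
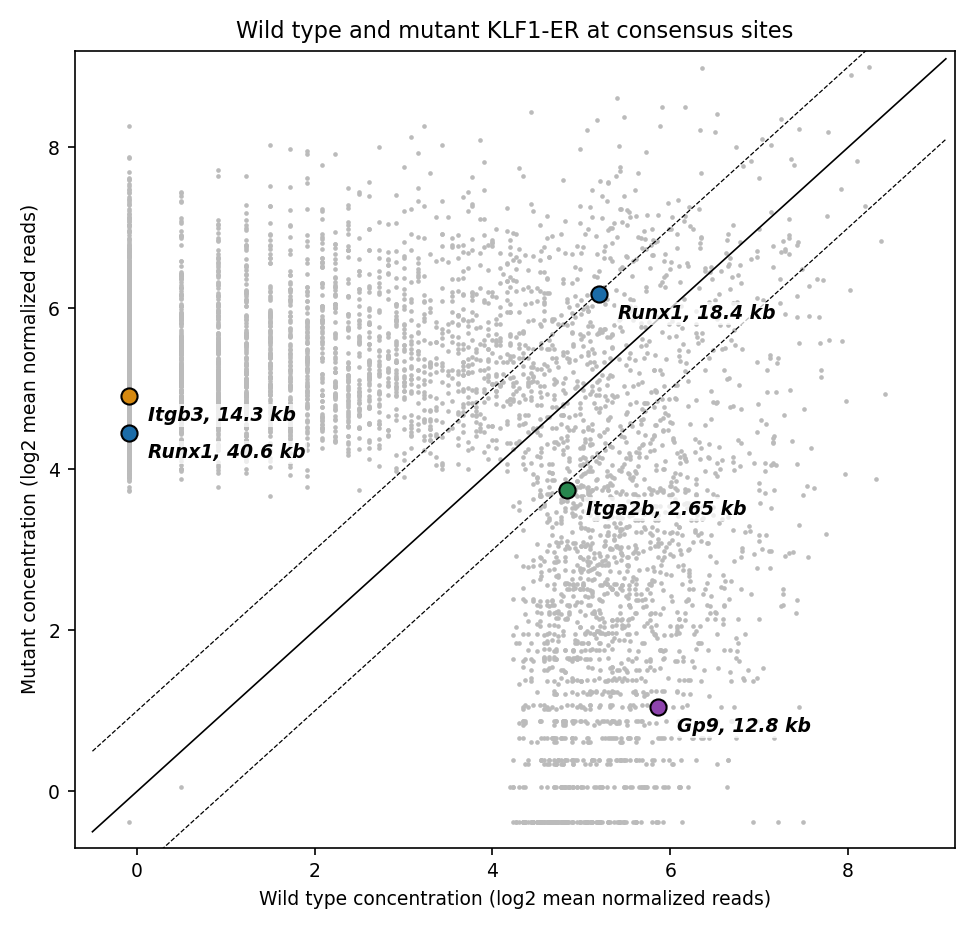
Concentration of wild type KLF1-ER (x axis) and mutant KLF1-E339K-ER (y axis) at all 5551 consensus sites, both as log2 of the authors' mean normalized reads, with the 5 sites of the megakaryocyte genes coloured and labelled with the distance to the closest TSS. The solid line marks equal values and the dashed lines a 2-fold difference: the Itgb3 site and 1 Runx1 site stand at the lowest wild type value of -0.09, Gp9 stands low for mutant, and Itga2b and the other Runx1 site lie beside the dashed lines.

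Among the transcription factor genes, binding was listed at Runx1 alone. Runx1 encodes the DNA-binding subunit of core-binding factor, which is needed for blood stem cells and megakaryocytes, and it is transcribed from a distal and a proximal start. The proximal-side site (chr16:92715827-92716196) lay 18.4 kb upstream of the proximal start and 110.3 kb downstream of the distal start, in intron 2 of the long transcript. Its mean concentration was 5.20 for wild type and 6.18 for mutant. Both values were in the upper part of all sites, at the 78.0th and 86.8th percentiles, and the difference of 0.98 (mutant minus wild type, log2) fell just short of 2-fold. Sites with both concentrations at 5 or more made up 6.4% of all sites.

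Of the 5 sites, the proximal-side Runx1 site held the most GATA matches. Its central window held 3, a number reached by 21 of all 5551 sites (0.378%), and the whole site held 6. The share of sites with as many over the whole site was not computed. One pyrimidine match, GGGGCGGGG, lay 112.5 bp from the midpoint (chr16:92715895-92715903, plus strand), outside the central window.

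The distal-side Runx1 site (chr16:92785535-92785941) lay in the same intron, 40.6 kb downstream of the distal start. Its wild type concentration was -0.09, the lowest listed, and its mutant concentration was 4.45, at the 35.5th percentile of all sites for mutant. Mutant was higher by at least 4.54 on the log2 scale. Such a pattern, with wild type at its lowest listed value and mutant at least 2-fold higher, was found at 1423 of all sites (25.6%). Purine matches GGGGAGGGG (minus strand) and AGGGAGTGG (plus strand) lay 53 and 77 bp from the midpoint, and a pyrimidine match, GGGGTGGGG (minus strand), lay 56 bp from it. The 2 Runx1 sites thus shared an intron but not a profile, since one had high values for both proteins and the other had wild type at its lowest listed value. Of the 3670 genes that were the closest TSS of any site, 30.1% had 2 or more sites.

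No site had Fli1, Meis1 or Mef2c as its closest TSS. Meis1 encodes a homeobox protein, and Mef2c a MADS-box protein with roles in muscle, lymphoid cells and megakaryocytes. The site nearest to the annotated 5′ end of Mef2c lay 228 kb downstream, in an intron of the noncoding RNA C130071C03Rik, and had 1.72 for wild type and 6.67 for mutant. The nearest site to Meis1 lay 833 kb upstream, with 3.08 for wild type and 5.56 for mutant and Spred2 as its closest TSS. For Fli1 the nearest lay 1260 kb away in an intron of Prdm10, with 0.91 and 4.86 in the same order. By the table each of these remote sites belongs to another gene. Among 22350 protein-coding genes of the annotation, 12% had their nearest site farther away than Fli1 did, 18% farther than Meis1 and 41.1% farther than Mef2c.

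The sites at the integrin genes differed in direction. Itga2b and Itgb3 encode CD41 and CD61, the chains of the platelet receptor for fibrinogen, and CD41 marks megakaryocytes from an early stage. The Itga2b site (chr11:102328391-102328704) lay 2.65 kb downstream of the TSS and was the 1 site of the 5 within 10 kb of a TSS. It reached from exon 5 across intron 4 into exon 4 of the coding transcript, with its midpoint in intron 4 of that transcript and in exon 1 of a noncoding one. Its mean concentration was 4.84 for wild type, at the 70.1th percentile, and 3.75 for mutant, at the 24.7th. Wild type was 2.13-fold higher, just past the 2-fold rule. The central window held the pyrimidine matches GGGGCGTGG and GGGGCGGGG, 6.5 and 43.5 bp from the midpoint, and 10.9% of all sites had 2 or more.

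The Itgb3 site (chr11:104483445-104483757) lay 14.3 kb downstream of the TSS in intron 1. Its wild type concentration was the lowest listed, -0.09, and its mutant concentration was 4.91, near the middle of all sites for mutant (51.8th percentile). Mutant was higher by at least 5.00 on the log2 scale. A run of G or C as long as its 15 G was present in the central window of 75 sites (1.35%). The site also held a GATA match 25.5 bp from its midpoint, AGATAA on the minus strand. The part of the repeat in the mapping of reads to this site was not tested.

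Of the genes for the von Willebrand factor receptor, Gp9 had a site and Gp1bb did not. Both encode subunits of the GPIb-IX complex, which tethers platelets to the vessel wall. The Gp9 site (chr6:87740780-87741084) lay 12.8 kb downstream of the Gp9 TSS, beyond the end of the gene and in the last exon of Rab43, past its coding part. It was the site with the strongest wild type binding of the 5, at 5.86 (89.9th percentile). The mutant concentration was 1.05 (7.70th percentile), so wild type was 28.1-fold higher. This mutant value is not far above the mutant floor of -0.38, so the fold rests on few normalized reads and carries no spread. Farther downstream, 46.07 kb from the Gp9 TSS, another site in an intron of Isy1 had -0.09 for wild type and 5.43 for mutant, and its closest TSS was that of Rab43.

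The nearest site to Gp1bb lay 143 kb downstream, with 4.98 for wild type and 3.78 for mutant and Gnb1l as its closest TSS. Pf4, which encodes the chemokine platelet factor 4 of the α granules, was the most remote of the 9 genes from any site. Its nearest site lay 1700 kb away in an intron of Scarb2, with -0.09 for wild type and 4.70 for mutant, and 7.86% of protein-coding genes lay farther from a site.

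No site was listed within 1 kb of the start of any of the 9 genes, and the share of all genes at 1 kb was not computed. A site within 10 kb of the TSS was found for 1 of the 9 genes, Itga2b, which is 1 of the 4 with a level, against 21.3% of all genes with a level. Of the 5 sites, 4 were more than 10 kb from the closest TSS, against 32.4% of all sites. Within 100 kb of the annotated 5′ end, 4 of the 9 genes had a site, against 43.9% of protein-coding genes, and the median distance to the nearest site was 143 kb against 140 kb. All sites within 100 kb, those of other genes included, lay downstream of the 5′ end. At Itga2b these included sites 94.76 and 96.28 kb downstream whose closest TSS was that of Slc4a1, the erythroid anion exchanger gene. The former had 5.20 for wild type and 4.08 for mutant, and the latter -0.09 and 5.21.

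**Figure D2:**
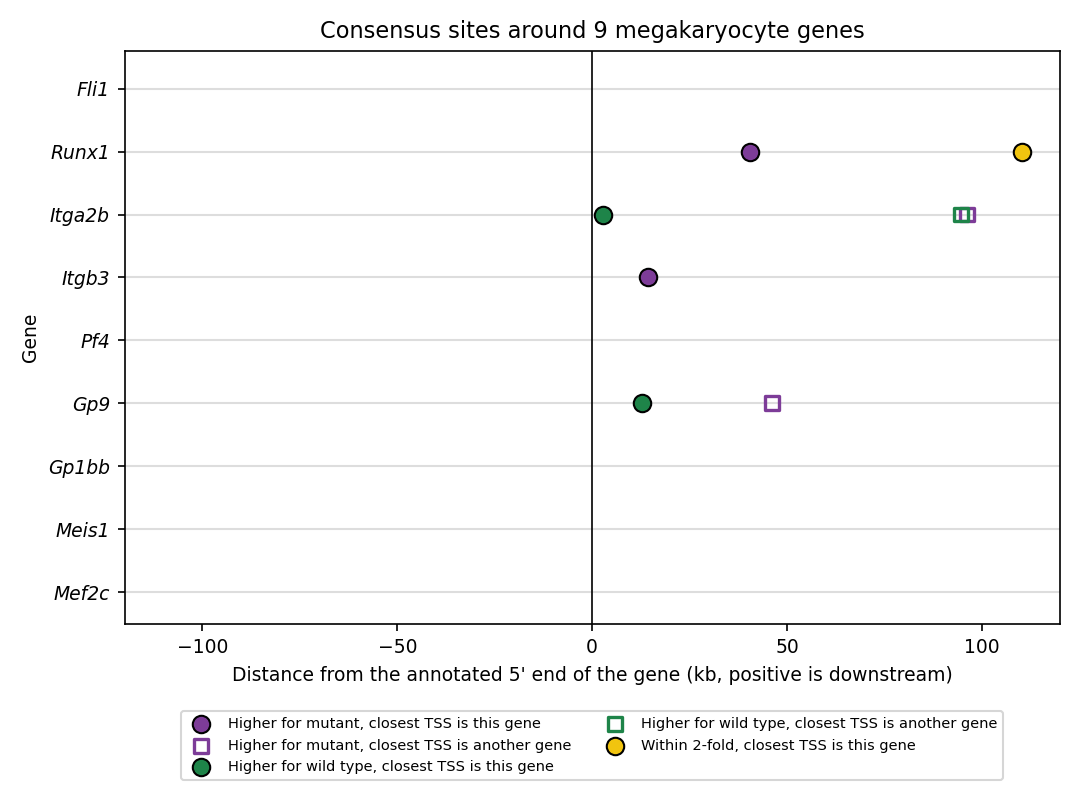
Position of consensus sites around the 9 megakaryocyte genes, as distance in kb from the annotated 5′ end of each gene (x axis), 1 row per gene. Filled circles are sites whose closest TSS is the gene in that row and open squares sites of other genes. Colours give the protein with the higher concentration: all sites lie on the downstream side, and the rows of Fli1, Pf4, Gp1bb, Meis1 and Mef2c hold none within 100 kb.

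The promoter sequences of 7 of the 9 genes were read from RefSeq (GRCm38.p6, 250 bases before to 50 after the start, 10 promoters, since Mef2c and Runx1 have several), and Fli1 and Itgb3 had no entry. No consensus site was assigned to any of these starts at under 2.65 kb. The Gp1bb promoter held the purine match GGGGAGGGG and the pyrimidine matches GGGGCGGGG and GGGGTGGGG, all on the minus strand of the promoter. The Gp9 promoter held the purine match AGGGAGGGG on the minus strand, and 1 of 3 Mef2c promoters the pyrimidine match GGGGTGGGG. Over all 32851 promoters, 22.6% held a purine match and 29.7% a pyrimidine match. Gp1bb thus held KLF1 motif letters at its start while its nearest listed site was 143 kb away. Of protein-coding genes, 49.7% lay farther from a site than Gp1bb. The share of promoters with a match but no near site was not computed.

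The level of new RNA was given by the authors as 1 mean per gene over the libraries of their fit, which included the K1-ER libraries, so levels cannot be split by group and carry no spread. A mean over a culture cannot tell fewer cells of a type from less RNA per cell. Levels were compared between genes after division by the gene's length, because a long gene can gather more reads. The length given by the authors is the genomic span. Whether reads in introns were counted was not given in the sources used here, so the order per kb depends on this choice of scale. Itga2b had 5.30 log2 CPM and 1.25 log2 CPM per kb, the highest of the 4 per kb (57.2th percentile of all genes per kb). Gp9 had 1.79 log2 CPM and 1.08 per kb (54.7th percentile), close to Itga2b at a length of 1.63 kb against 16.6 kb. Per kb, Itga2b and Gp9 stood just above the median of all listed genes, 0.82 log2 CPM per kb, whereas without division by length Gp9 was at the 13.3th percentile.

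The transcription factor genes stood lower per kb. Runx1 had 8.10 log2 CPM, but over its span of 225 kb this was 0.29 per kb (40.8th percentile). Mef2c had 5.20 log2 CPM and -2.15 per kb over 164 kb (14.2th percentile), which was 5.43-fold below Runx1 and 10.6-fold below Itga2b per kb. Itga2b and Gp9 differed by 1.13-fold per kb. Since no spread is given for these means, the order of close neighbours such as Itga2b and Gp9 rests on the means alone. All 4 genes were above the lowest level listed, -2.28 log2 CPM.

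**Figure D3:**
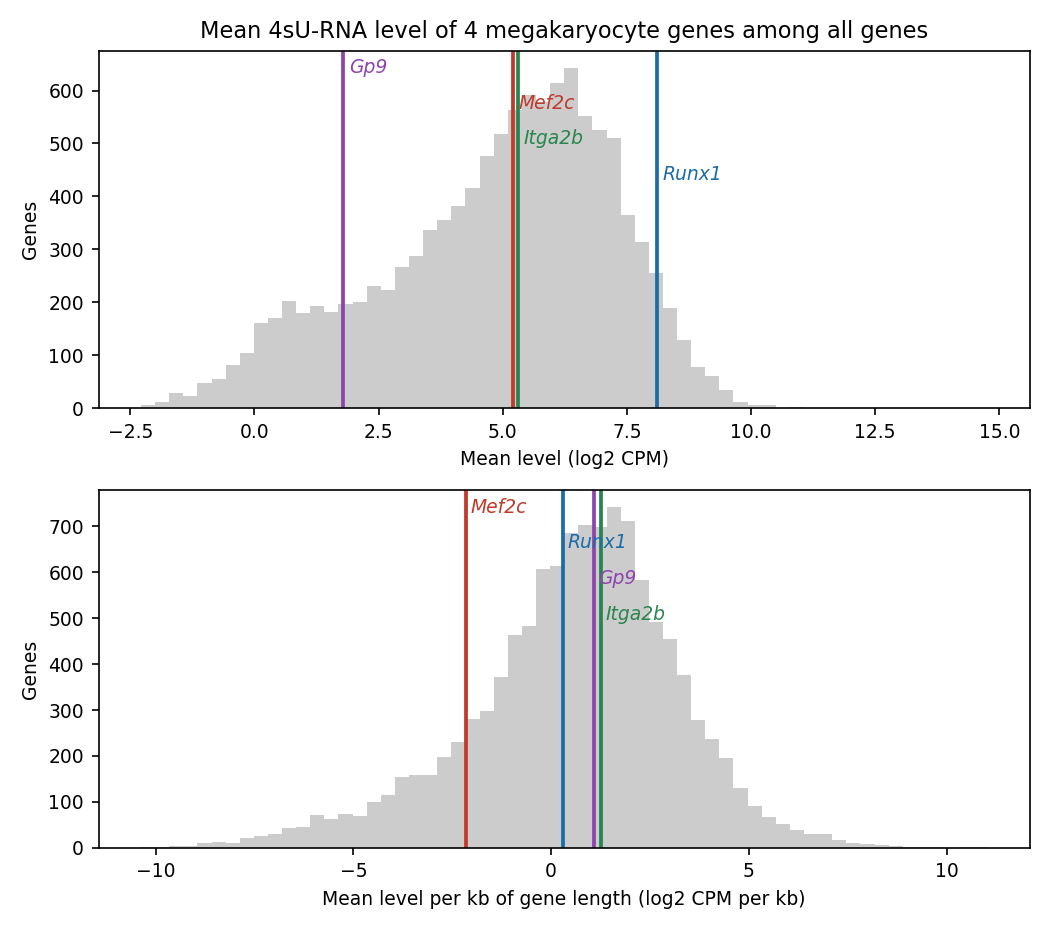
Mean level of the 4 listed megakaryocyte genes (coloured lines) within the distribution of all 11364 genes (grey, number of genes per bin), as log2 CPM above and as log2 CPM per kb of gene length below. Runx1 stands far to the right above, at 8.10, and left of Itga2b and Gp9 below, at 0.29, while Mef2c is lowest per kb at -2.15.

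The cells were checked against lineage markers on the same per kb scale. Of 16 erythroid markers 15 had a level, with a median of 3.00 log2 CPM per kb. The highest were Hbb-bh1 (6.13), Epor (6.09) and Klf1 (5.09), the last of which may include reads of the transgene, and the lowest were Alas2 (0.75), Hba-x (0.06) and Epb4.9 (-3.27). Of 8 myeloid markers 4 had a level, with a median of -1.04, and none of the 4 lymphoid, 4 mast cell or 4 endothelial markers had one. The median of the 4 megakaryocyte genes, 0.68, lay between these medians, but the lists overlapped: Mef2c (-2.15) was below the myeloid median, and Itga2b (1.25) and Gp9 (1.08) were above the erythroid Alas2, Hba-x and Epb4.9.

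Wider lists of megakaryocyte genes were read on the same scale. Of 19 further transcription factors of the lineage 14 had a level, with a median of 3.16 log2 CPM per kb. They were led by Gata1 (6.68), Tal1 (5.86) and Gfi1b (5.56), and all 3 of these also serve the erythroid lineage. Of 19 further surface and granule genes 3 had a level, which were Nbeal2 (2.84), Cd9 (0.33) and Vwf (-1.78). Counting the 9 genes themselves, 16 of 23 factors and 5 of 24 surface and granule genes were listed. For scale, 11364 genes of any kind were listed, and the annotation holds 22350 protein-coding genes. The share of protein-coding genes that were listed was not computed.

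**Figure D4:**
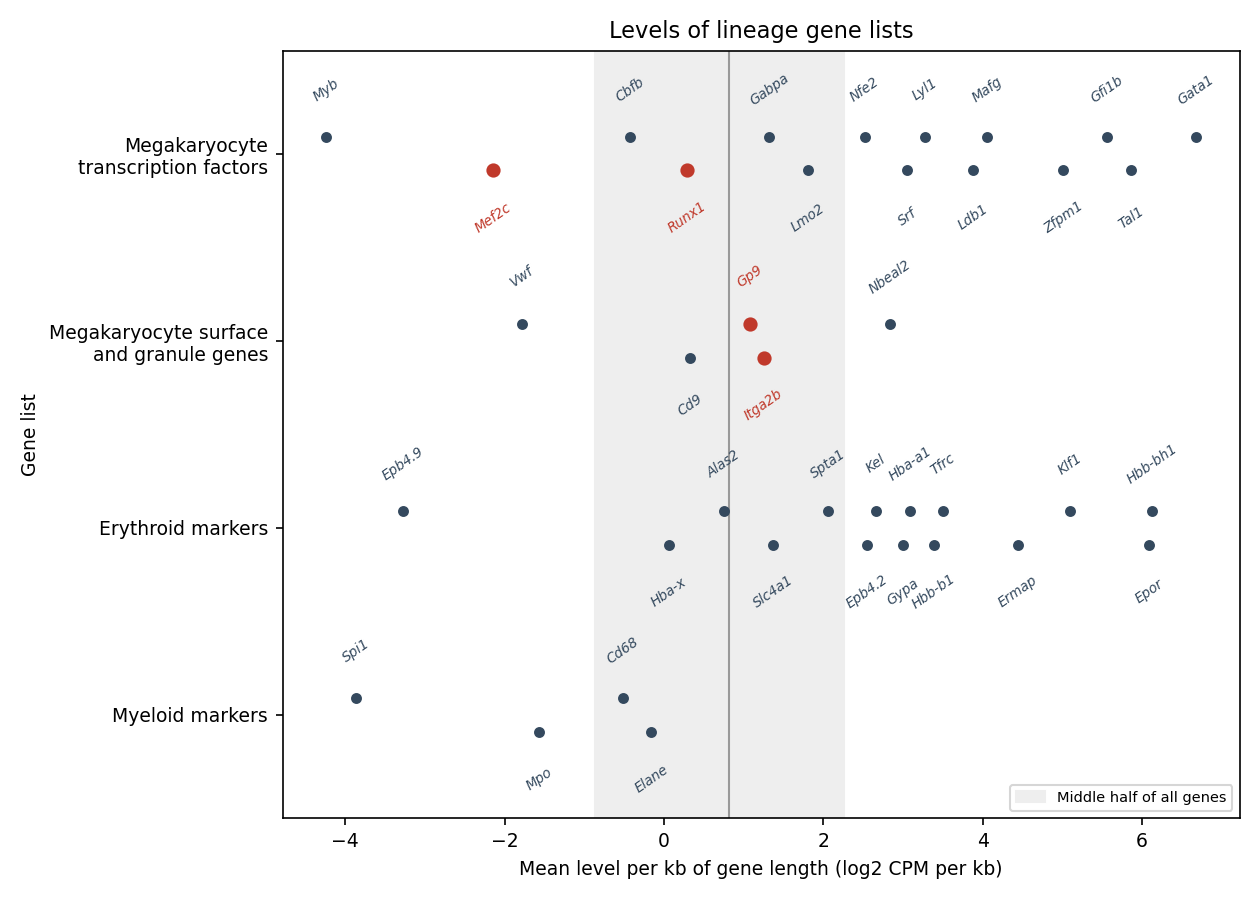
Mean level in log2 CPM per kb of gene length (x axis) of listed genes in 4 lineage lists, with 1 point per gene shown, the 4 megakaryocyte genes of interest in red, a line at the median of all genes and a band over their middle quartiles. Runx1, Gp9 and Itga2b lie inside the band, Mef2c lies left of it, and most erythroid markers lie to its right.

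Binding was counted over the same lists, without a test. A site within 10 kb of the TSS was found for 21.3% of all genes with a level. Of the 19 further factors 10 had one, all 10 among the 14 with a level. Of their 26 sites, 14 were higher for mutant, 6 higher for wild type and 6 within 2-fold. Over all sites, 61.5% were higher for mutant and 28.7% for wild type. None of the 4 factors Fli1, Runx1, Meis1 and Mef2c had a site within 10 kb, and of these Runx1 and Mef2c had a level. Of the 19 further surface and granule genes 1 had such a site, Nbeal2, which is 1 of the 3 with a level. It encodes a protein needed for platelet α granules. Its site lay 20.5 bp upstream of the TSS (chr9:110556487-110556884), with 7.13 for wild type and 2.99 for mutant. For comparison, 11 of the 16 erythroid markers had a site within 10 kb, all 11 among the 15 with a level. Of these, Hba-a1 was counted only through sites with almost no signal, at 0.50 for wild type and 0.05 for mutant, and at -0.09 and -0.38. The latter values are the floors of both proteins. Neither these counts nor the share over all genes were filtered by concentration.

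Among the factors with sites near the TSS, the protein higher by the 2-fold rule could change between sites of 1 gene. At Tal1, a site 3.0 kb upstream of the TSS had 5.82 for wild type and 4.24 for mutant. Another, 2.57 kb upstream, had 3.82 and 6.18. These Tal1 sites lie close together (chr4:114728956-114729306 and chr4:114729398-114729725), and whether they share reads was not tested. Gfi1b, Ldb1 and Lyl1 each had sites of both directions within 10 kb too. No such change by the 2-fold rule was seen at Gata1, Nfe2 or Zfpm1. The share of all genes with such a change was not computed. At Gata1, the erythroid and megakaryocyte master regulator, a site 47 bp upstream of the TSS had 7.43 for wild type and 6.79 for mutant, within 2-fold. A site 3.58 kb upstream had 5.06 and 8.22. Sites 3.65 and 1.65 kb downstream had 3.43 and 6.93, and 3.82 and 5.76, both higher for mutant. Nfe2, the p45 factor needed for platelet release, had 8.03 and 8.90 at a site 3.14 kb upstream and 5.00 and 0.05 at a site 2.55 kb downstream. A site 134 bp upstream of the TSS of Cbfb, the partner of RUNX1, had 4.61 and 3.70.

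**Figure D5:**
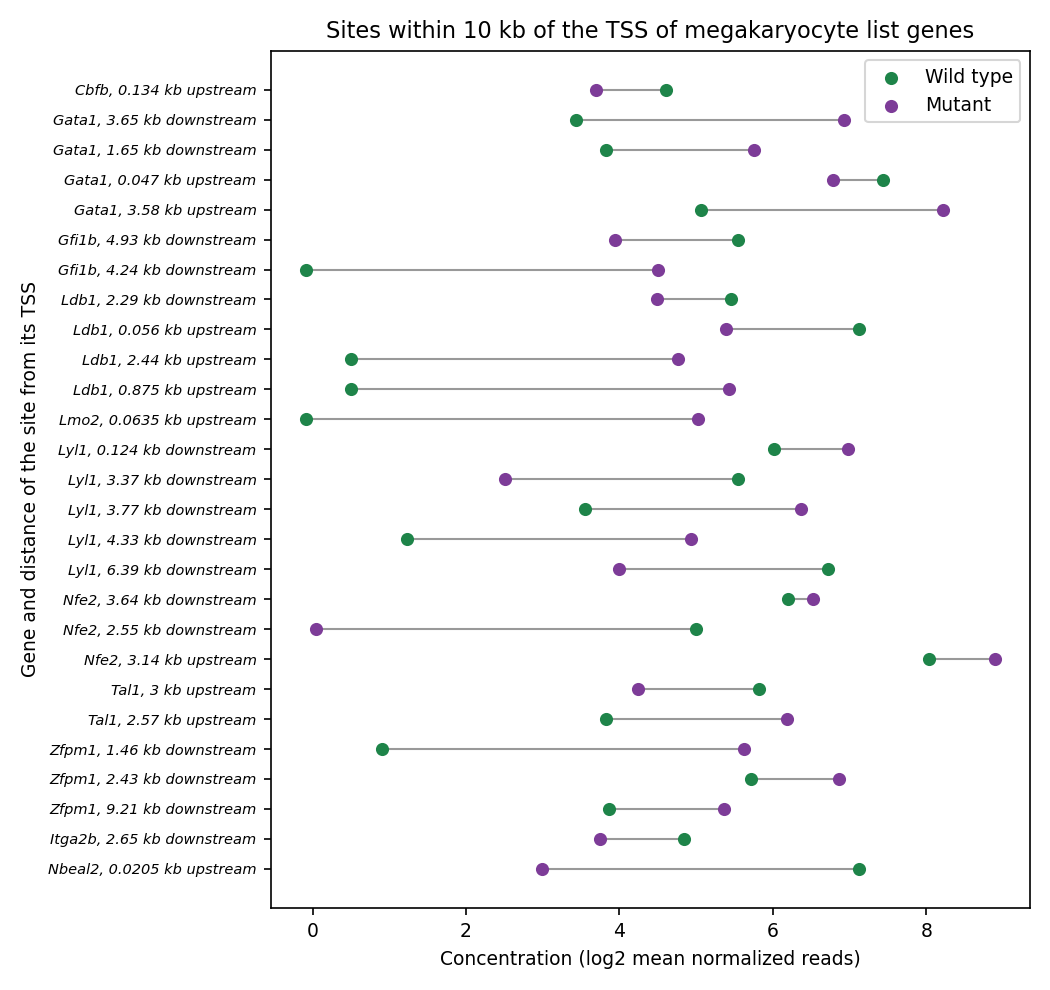
Concentration (x axis, log2 of the authors' mean normalized reads) of wild type (green) and mutant (purple) at sites within 10 kb of the TSS of genes in the megakaryocyte lists, 1 row per site shown with its distance from the TSS. Both colours lead in turn among the factors, and wild type leads at Itga2b (4.84 against 3.75) and Nbeal2 (7.13 against 2.99).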

How the data were processed

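The study measured newly made RNA in K1 and K1-CDA-ER cells and KLF1-E339K-ER binding in K1-CDA-ER cells. Per the labels and methods, reads of the Ion Proton were mapped by the authors to mm9 (TopHat2 2.0.10 and TMAP for RNA, TMAP for ChIP), fitted limma-voom to RNA, called peaks with MACS2 and GEM and ran DiffBind. The authors deposited log2 values: the mean voom log2 CPM of each gene, the same in both gene tables, and the log2 concentration of each protein at each site. Gene lengths, positions and distances are in base pairs. The counting tool, the annotation and the number of wild type ChIP libraries were not given in the sources used here, and for mutant the labels give 1 library, so its mean may rest on that library alone. The remaining columns hold the authors' own comparisons (fold changes, t, p-values, FDR) and were not used, so no test of a response to KLF1 is reported.

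Both gene tables were joined on Entrez identifier, length and mean (11364 of 11364 genes). Sites were taken by the table's closest TSS. Its signed distance, added to the midpoint, fell within 1 bp of an annotated start for 3220 of 5151 sites, and subtracted for 8, which fixed the upstream and downstream sides. Sequence came from NCBIM37 (mm9) and gene models from GENCODE M1, read with pysam 0.24.0 and Python 3.11.15. The motif search was tested on simulated sequences. No depth or count per library is known, so no interval can be given. All 9 genes and all their sites are named, and of the wider lists those with a site within 10 kb or the highest levels may be named. A gene of the wider lists, which stays in their counts and medians, and the sequence of 1 site are not reported here. Members and lists were chosen with earlier results of these data known. The alternatives were other thresholds, windows, length scaling and filters.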

Additional observations from a re-analysis of the deposited data

How the results depend on the processing

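The 2 sites higher for mutant stayed at 2 with a 4-fold rule, with sites of higher concentration at least 4, and with sites assigned by gene span, and became 3 when any difference counted. The 2 sites higher for wild type became 1 with the 4-fold rule, which drops Itga2b, and 1 when sites were assigned by the gene span with 10 kb around it, which drops Gp9. The count of genes with a site near the TSS was 1 within 10 kb, 0 within 1 kb, and 4 within 50 kb and at any distance. The share of all genes at 1 kb and at 50 kb was not computed. Without division by length, 3 of the 6 pairs among the 4 listed genes kept their order, since Runx1 moved from the 40.8th to the 94.5th percentile and Gp9 from the 54.7th to the 13.3th. Sites with a purine match numbered 2 in place of 1 within 100 bp of the midpoint and over the whole site (2), and sites with a pyrimidine match 4 in place of 2 over the whole site. No paired analysis was possible because the tables hold means and no values per library, and for the same reason no replicate could be left out.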
